A study of Danio rerio with 13 samples.

Results

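The genes described here lie beside tert, the gene for the reverse transcriptase subunit of telomerase, in a count table of zebrafish brain RNA whose rows follow chromosome order. The members were chosen by position in the table and by a measured minimum. They are the rows from 30 before to 170 after tert, without tert itself, SLC6A18 and CLPTM1L, that reached a CPM (read count scaled to library size) of at least 1 in 3 or more libraries. Of 198 such rows, 126 met the minimum, 25 before tert and the others after it, out of 32105 rows in the table and 20064 genes tested. The borders of the window were set with p values of these fish in view. Counts of low p values, sizes of change and overlaps between fish inside it are therefore given as a description only. Distances are rows in the table (negative before tert, positive after it) and not base pairs, and symbols are spelled as in the gene name table, which writes many zebrafish genes in capitals.

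Brain RNA came from 13 male zebrafish of the AB strain at 3 months of age, with 1 fish per library. They were 5 wild-type fish (WT), 5 fish heterozygous for the mutant tert allele (tert+/-) and 3 homozygous fish (tert-/-). The mutant line was tert hu3430, a germline allele with a premature stop codon, and it is the single mutant allele studied. Libraries held 22008289 to 32380953 counts on 23786 to 24197 detected genes, and the members took 0.836 to 0.939% of the counts. ELAVL3, a neuronal RNA-binding protein, reached 258 to 422 CPM in all fish, while photoreceptor genes were high in WT 5, tert+/- 3 and, less so, WT 1 (GNAT1 56.5, 31.7 and 11.8 CPM). Summed photoreceptor markers spanned 4.73 to 388 CPM in WT, 2.52 to 220 in tert+/- and 2.52 to 4.82 in tert-/- brains. The part of these libraries in each count of members was examined by leaving them out. In bulk tissue, fewer cells of a type and less RNA per cell cannot be told apart.

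As background, telomerase adds repeats to chromosome ends, and its protein subunit copies them from an RNA template. Fish that carry a mutant allele also carry the stretch of the parental chromosome on which it arose, together with any sequence variants in that stretch, until recombination separates them. Genes in such a stretch are therefore inherited with the mutation, whatever their function. These data hold no genotypes of the stretch, and the tert mutation and variants linked to it cannot be told apart by genotype group.

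The neighbours of tert are a mixed set. Of the 126 members, 118 carried a symbol and 8 were known by identifier alone. A total of 85 symbols had a unique match in a gene table of another genome build, and 85 of these 85 were on the chromosome of tert there. The lowest mean level was 0.762 CPM and the median 13.2, and 105 members were at the minimum in all 13 libraries. No member passed the minimum through fish of 1 genotype alone. Among the most abundant were atp1a3a, a neuronal sodium pump subunit, and eno2, the neuronal enolase of glycolysis. Over all fish, atp1a3a lay between 1297 and 1690 CPM and eno2 between 427 and 634 CPM. Their log2 fold changes in tert-/- against WT brains were -0.02 ± 0.10 and 0.10 ± 0.12 (SE), so that both differed by less than 1 SE. Just inside the minimum were recql4, zgc:173581 and zgc:162972, with third-highest values of 1.49, 1.38 and 1.08 CPM. Just outside were btr18, OSCP1 and si:ch73-24k9.2, with 0.986, 0.970 and 0.895 CPM.

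The comparison of tert-/- with WT brains asks which neighbours differ when both alleles are mutant. In edgeR's quasi-likelihood test, 21 of the 126 members (16.7%) had an unadjusted p under 0.05, against 2.14% of all genes tested. Of these, 7 were higher and 14 were lower in tert-/- brains. Without WT 1, WT 5 and tert+/- 3, the libraries high in photoreceptor genes, the count was 13, with 6 higher and 7 lower. The share of all genes in that refit is not given. Because the window was drawn with these p values known, nothing is read from these counts or from the share of 16.7%. After Benjamini-Hochberg adjustment over all genes, edgeR called 0 members and 0.0% of all genes, and the lowest adjusted p of a member was 0.3291. DESeq2, which called 0.0593% of its genes (16 genes), called 4 members: sema6ca and DENND3 fell, and ENSDARG00000099438 and BTD rose. Over all members, 55 were higher and 71 lower, and the median log2 fold change was -0.01. The median absolute log2 fold change was 0.12, against 0.11 in all genes tested and 0.09 in genes meeting the same minimum. A total of 42 members (33.3%) differed by at least 0.25 on the log2 scale, against 19.3% of genes at the same minimum. With a threshold of 1 there were 6 members (4.76%), against 1.64%. These sizes come from the same fish and comparison as the p values, so nothing is read from their shares either.

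**Figure D1:**
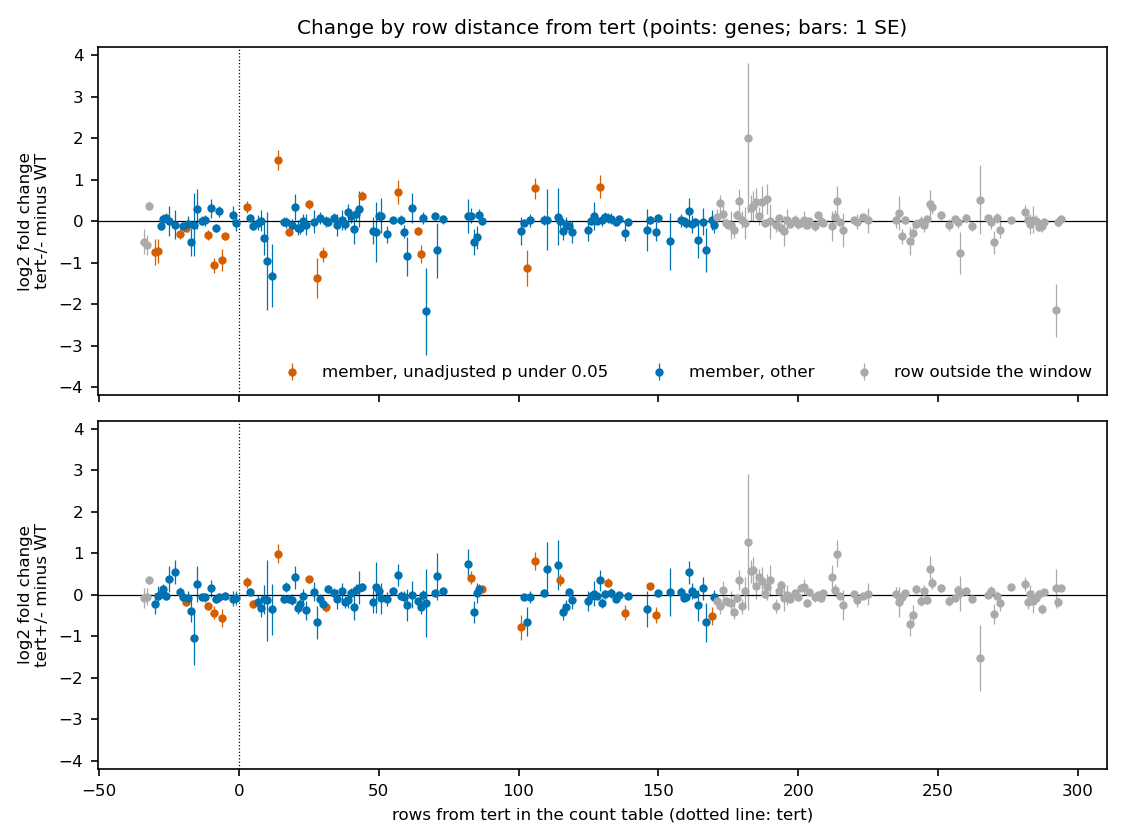
Log2 fold change against WT (y axis, points with bars of 1 SE) by rows from tert (x axis) for tert-/- brains (top) and tert+/- brains (bottom), with members in orange (unadjusted p under 0.05) or blue and rows outside the window in grey. All 8 orange members before tert in the top panel are below 0, while those after it lie on both sides.

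The gene sema6ca, 9 rows before tert, encodes a membrane-bound semaphorin of the family that guides axons. It stood at 7.59, 8.38, 6.81, 8.33 and 9.33 CPM in WT fish, 7.68, 6.40, 5.73, 6.13 and 4.18 in tert+/- fish, and 3.50, 3.99 and 4.08 in tert-/- fish. All 3 tert-/- fish lay below every fish of both other genotypes, and 4 of 5 tert+/- fish lay below the lowest WT fish. Against WT, tert-/- brains differed by -1.07 ± 0.18 on the log2 scale and tert+/- brains by -0.42 ± 0.15 (SE), and tert-/- differed from tert+/- brains by -0.64 ± 0.18. DESeq2 gave adjusted p = 0.000188 for tert-/- against WT, where edgeR gave adjusted p = 0.3291.

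ENSDARG00000099438, 14 rows after tert, is unnamed in the gene table used. Its levels were 2.31, 1.96, 2.09, 1.78 and 1.795 CPM in WT fish, 2.53, 3.95, 3.72, 6.48 and 3.12 in tert+/- fish, and 5.73, 6.10 and 4.78 in tert-/- fish, on 46 to 191 counts per library. Every mutant fish lay above every WT fish, while tert+/- 4 exceeded all tert-/- fish. Against WT it differed by 1.48 ± 0.25 in tert-/- and 0.99 ± 0.22 in tert+/- brains on the log2 scale, and DESeq2 called both (adjusted p = 0.000188 and 0.0343). It was the single member that DESeq2 called in tert+/- against WT brains, where 0.12% of all its genes were called.

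BTD, 44 rows after tert, encodes biotinidase, the enzyme that frees biotin for reuse. It measured 10.1, 11.4, 11.6, 10.3 and 9.17 CPM in WT fish, 11.2, 11.1, 12.9, 11.6 and 12.7 in tert+/- fish, and 15.8, 17.7 and 14.99 in tert-/- fish. The tert-/- fish were above all others, and the tert+/- fish overlapped WT. The difference was 0.62 ± 0.11 on the log2 scale (DESeq2 adjusted p = 0.000102) in tert-/- and 0.18 ± 0.09 in tert+/- against WT.

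DENND3, 30 rows after tert, encodes a guanine nucleotide exchange factor for a Rab protein of membrane traffic. It stood at 7.68, 9.68, 10.8, 9.01 and 10.7 CPM in WT fish, 7.60, 8.72, 8.33, 10.2 and 6.24 in tert+/- fish, and 6.01, 5.78 and 4.66 in tert-/- fish. The tert-/- fish lay below all others, tert+/- 5 being the next lowest. On the log2 scale it differed from WT by -0.80 ± 0.17 in tert-/- (DESeq2 adjusted p = 0.0231) and -0.22 ± 0.15 in tert+/- brains. With each library left out in turn, DESeq2 called sema6ca, ENSDARG00000099438 and BTD in all 13 refits. It lost DENND3 in 6, without WT 2, WT 3, WT 4 or WT 5 (adjusted p = 0.09996, 0.194, 0.0577 and 0.159) and without tert-/- 2 or tert-/- 3 (0.126 and 0.327).

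**Figure D2:**
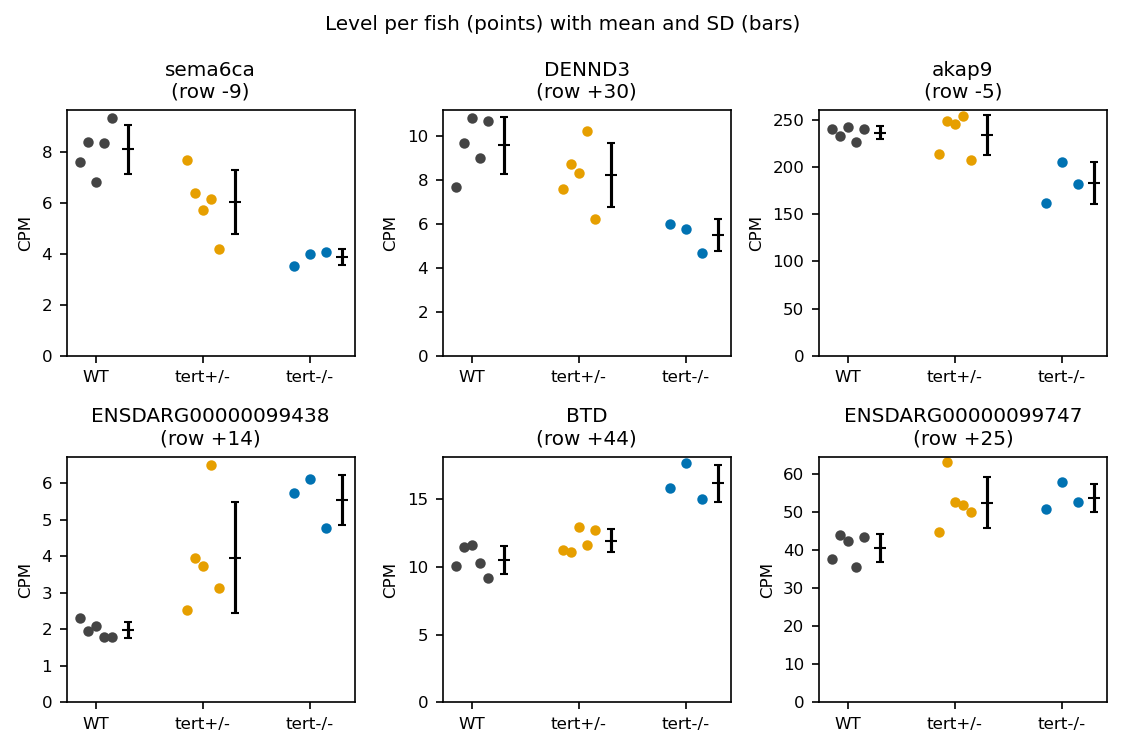
CPM per fish (y axis, points) by genotype (x axis) for 6 members, with mean and SD beside each group and each y axis starting at 0. The tert-/- fish lie apart from all WT fish in each panel, and for ENSDARG00000099747 the tert+/- fish (44.7 to 63.2 CPM) lie with the tert-/- fish (50.8 to 57.9 CPM).

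Before tert, the 8 members with an unadjusted p under 0.05 in tert-/- against WT were all lower in tert-/- brains. The scaffold gene akap9, 5 rows before tert, anchors protein kinase A at the centrosome and Golgi apparatus. It measured 240, 232, 242, 227 and 240 CPM in WT fish, 214, 248, 245, 254 and 208 in tert+/- fish, and 162, 206 and 182 in tert-/- fish. The tert-/- fish were below all others, although tert-/- 2 (206 CPM) lay close to the lowest tert+/- fish (208 CPM). The log2 difference from WT was -0.37 ± 0.09 for 2 mutant alleles and -0.02 ± 0.08 for 1. ENSDARG00000077668, in the next row, had mean levels (± SD) of 5.98 ± 1.01 CPM in the 5 WT fish, 4.03 ± 1.25 in the 5 tert+/- fish and 3.12 ± 0.49 in the 3 tert-/- fish, with a log2 fold change of -0.94 ± 0.26 in tert-/- against WT. Its tert-/- fish (2.65 to 3.63 CPM) were below every WT fish (4.76 to 7.02 CPM) and overlapped the tert+/- fish.

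Further out on this side, the differences were smaller or rested on fewer reads. VPS72, a subunit of chromatin remodelling complexes, was at 14.4 ± 1.4, 12.03 ± 1.24 and 11.5 ± 0.756 CPM in WT, tert+/- and tert-/- brains (-0.33 ± 0.12 in tert-/- against WT). The gene for the mitochondrial membrane protein tmem65 was at 100.2 ± 3.31, 89.3 ± 7.51 and 89.2 ± 2.37 CPM (-0.17 ± 0.07). In both genes the tert-/- fish did not overlap the WT fish. The unadjusted edgeR p of tmem65 was at or above 0.05 in 7 of the 13 refits with a library left out, and reached 0.139 without tert-/- 2, while that of VPS72 did so in 1 (0.0572 without tert-/- 2). TATDN1, a gene of the TatD nuclease family, was lower in tert-/- brains (5.31 ± 0.523 CPM) than in WT (6.58 ± 0.607) and tert+/- brains (6.96 ± 0.691), with no overlap. At the border of the window, zhx2b, encodes a zinc finger and homeobox transcription factor, and its tert-/- fish (0.837 to 1.86 CPM) overlapped WT (1.85 to 2.65 CPM). Without tert-/- 1, the unadjusted edgeR p of zhx2b was 0.159, that of si:zfos-632h11.5 beside it 0.122, and that of TATDN1 0.169.

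Among the 5 nearest members on each side, akap9 and ENSDARG00000077668 were lower, as described, and most others differed little. CYP51A1, a sterol demethylase of cholesterol synthesis, and nup42, a nuclear pore gene, lie directly before it and differed by 0.16 ± 0.20 and -0.03 ± 0.20 in tert-/- against WT. After it, gstr (a glutathione S-transferase), msto1 (mitochondrial distribution), glmp (a lysosomal membrane protein) and NRM (a nuclear envelope protein) had log2 fold changes of 0.08, -0.11, -0.03 and 0.01. Higher on this side was fhod3a, a formin gene of actin assembly 3 rows after tert, which was at 4.79 ± 0.706 CPM in WT, 5.93 ± 0.671 in tert+/- and 6.04 ± 0.466 in tert-/- brains. Its log2 fold change of 0.34 ± 0.15 in tert-/- against WT was past the unadjusted threshold of 0.05, but its fish overlapped. Without tert-/- 2 its unadjusted edgeR p was 0.117. ENSDARG00000086107, 7 rows before tert, was the single member on that side whose tert-/- fish (6.45 to 7.75 CPM) were all above WT (5.19 to 6.38 CPM), although its difference of 0.24 ± 0.13 did not pass that threshold. The genes left out by the rule stood at 2.55, 5.70 and 8.02 CPM (TERT), 0.0808, 1.38 and 2.37 (SLC6A18, 4 rows before) and 43.6, 50.3 and 52.6 (CLPTM1L, 33 rows after) in WT, tert+/- and tert-/- brains.

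**Figure D3:**
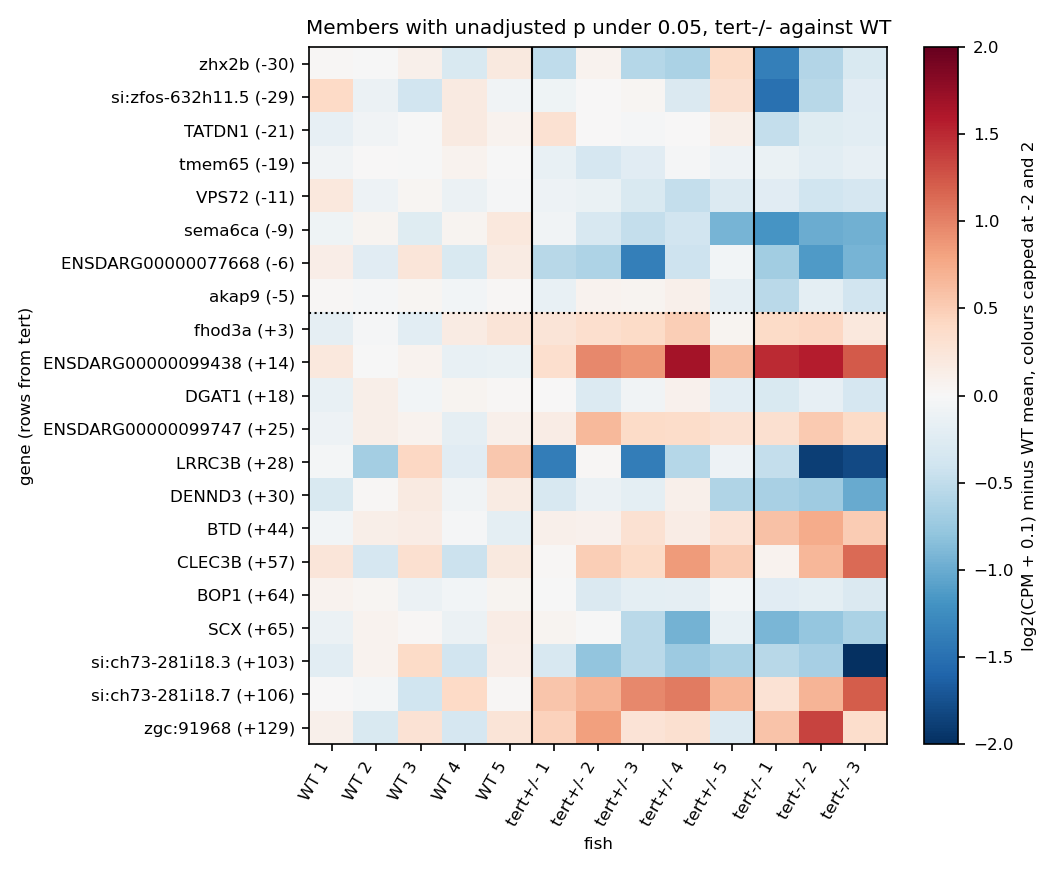
Each fish (x axis) and each of the 21 members with an unadjusted p under 0.05 in tert-/- against WT (y axis, rows from tert in brackets), coloured by log2(CPM + 0.1) minus the WT mean, with a dotted line at tert. The tert-/- fish are below the WT mean throughout the 8 genes before tert, though only slightly for tmem65. The tert+/- fish are mixed, and some lie below every tert-/- fish. An example is tert+/- 2 for tmem65, at 79.1 CPM against 86.9 to 91.6 in tert-/- fish.

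After tert, higher and lower members lay next to each other. ENSDARG00000099747, 25 rows after tert, measured 37.7, 43.9, 42.4, 35.6 and 43.4 CPM in WT fish, 44.7, 63.2, 52.7, 52.0 and 50.1 in tert+/- fish, and 50.8, 57.9 and 52.7 in tert-/- fish. Both mutant genotypes were above every WT fish, by 0.41 ± 0.11 and 0.37 ± 0.09 on the log2 scale in tert-/- and tert+/- brains. In the opposite direction, LRRC3B, a leucine-rich repeat membrane protein gene 3 rows further on, went from 2.25 ± 0.766 CPM in WT to 0.858 ± 0.573 in tert-/- brains (-1.38 ± 0.48). Its values of 1.52, 0.511 and 0.544 CPM in tert-/- fish overlapped WT (1.30 to 3.16 CPM) through tert-/- 1, and its unadjusted edgeR p was 0.0633 without tert-/- 2. DGAT1, which catalyses the last step of triglyceride synthesis, was at 67.7 ± 4.74 CPM in WT and 56.2 ± 3.45 in tert-/- brains (-0.27 ± 0.09), with no overlap. Without tert-/- 3 its unadjusted edgeR p was 0.0707.

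Between 51 and 100 rows after tert, SCX and BOP1 are neighbours. SCX encodes scleraxis, a transcription factor of tendon cells, and measured 3.88, 4.45, 4.29, 3.91 and 4.68 CPM in WT fish, 4.38, 4.23, 2.87, 2.16 and 3.81 in tert+/- fish, and 2.20, 2.43 and 2.68 in tert-/- fish. The tert-/- fish were below all WT fish, and tert+/- fish spread over both ranges (-0.80 ± 0.22 in tert-/- against WT). BOP1, a factor of ribosome assembly, stood at 15.2 ± 0.845 CPM in WT and 12.9 ± 0.388 in tert-/- brains (-0.24 ± 0.09), also without overlap, and its unadjusted edgeR p was 0.0835 without tert-/- 3. CLEC3B, the gene for the plasminogen-binding lectin tetranectin, was low, at 0.930 ± 0.235 CPM in WT and 1.52 ± 0.568 in tert-/- brains, and its fish overlapped. Its unadjusted edgeR p of 0.0341 was 0.220 without tert-/- 3.

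In the farthest rows, the members with an unadjusted p under 0.05 were all low in level. The unnamed gene si:ch73-281i18.7 was at 1.24 ± 0.265 CPM in WT, 2.18 ± 0.328 in tert+/- and 2.16 ± 0.728 in tert-/- brains. All 5 tert+/- fish were above WT, while tert-/- 1 (1.52 CPM) lay inside the WT range, and without tert-/- 3 the unadjusted edgeR p in tert-/- against WT was 0.0676. Its neighbour si:ch73-281i18.3 was at 2.75 ± 0.59, 1.75 ± 0.243 and 1.24 ± 0.844 CPM, and tert-/- 3 held 7 counts of it. For zgc:91968, 129 rows after tert, tert-/- fish measured 3.04, 5.33 and 2.60 CPM against 1.58 to 2.48 in WT, and the unadjusted edgeR p was 0.129 without tert-/- 2. The last member, si:ch1073-127d16.1, was level at 1.31 to 1.59 CPM in WT and 1.24 to 1.55 in tert-/- fish.

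Overlap between fish was counted without a model, but in the same fish whose p values were known when the window was drawn. The counts are therefore a description only. In 16 members (12.7%) the tert-/- and WT fish did not overlap, 5 higher and 11 lower, against 2.17% of all genes tested. Between tert+/- and WT fish, 3 members (2.38%) did not overlap, all of them higher in tert+/- fish, against 1.7% of all genes. Between tert-/- and tert+/- fish, 6 members (4.76%) did not overlap, against 2.4% of all genes. BTD was higher in tert-/- fish there, and TATDN1, sema6ca, akap9, DENND3 and si:ch211-80h18.1 were lower. The first and last of these comparisons share the tert-/- fish, and the first 2 share the WT fish.

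Along rows, the share of members with a low p in tert-/- against WT brains was lower farther out over the 170 rows after tert. It was not over the 30 rows before tert, and distances beyond row -34 were not examined on that side. The share was 8 of 25 (32.0%) in rows -30 to -1, 7 of 38 (18.4%) in rows 1 to 50, 3 of 21 (14.3%) in rows 51 to 100 and 3 of 42 (7.14%) in the last 70 rows. Outside the window it was 1 of 82 (1.22%) up to row 300, 2 of 115 (1.74%) from there to row 500 and 7 of 314 (2.23%) from there to row 1000. The median absolute log2 fold change did not follow the same order, at 0.17, 0.14, 0.24 and 0.07 in the 4 bins of the window and 0.09, 0.08 and 0.09 outside it. The bin with the highest median, rows 51 to 100, includes genes that varied widely among fish of 1 genotype. An example is stm, at 4.54 to 55.9 CPM in tert+/- fish, and the part of such genes in that median was not tested. The median ratio of the absolute change to its SE was 1.30 before tert and 0.744, 1.06 and 0.433 in the 3 bins after it. Before tert the share was 33.3% in rows -15 to -1 and 30.8% in rows -30 to -16, and 2 of the 3 tested rows beyond the window also had a low p. Split at the middle of each side, the median absolute change was 0.27 in rows -15 to -1, 0.11 in rows -30 to -16, 0.17 in rows 1 to 85 and 0.07 in rows 86 to 170. Median levels also differed between the bins after tert, at 10.8, 14.1 and 20.6 CPM, and their part in the shares was not tested. Neighbouring rows are not independent measurements. The window was also drawn with p values of these fish known. Shares and median changes inside it, and their difference from rows outside, are therefore a description only.

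The window did not end where low p values ended on the side before tert. Of the 3 tested rows just outside it, col14a1b (a fibril-associated collagen) was lower in tert-/- (5.47 ± 1.13 CPM) than in WT brains (8.14 ± 1.01), and dnajc8 (a splicing-associated co-chaperone) was higher (59.3 ± 12.3 against 45.8 ± 2.29 CPM). Neither gene overlapped between the genotypes, and gpd1c differed by -0.49 ± 0.29. After row 170, si:ch73-367f21.4, si:ch73-367f21.5 and si:ch73-367f21.6 differed by 0.11, 0.43 and 0.17, none with an unadjusted p under 0.05 in tert-/- against WT. The tert-/- fish of si:ch73-367f21.5 (1.63 to 1.94 CPM) nevertheless lay above every WT fish (1.19 to 1.44 CPM). They also lay above every tert+/- fish, with an unadjusted edgeR p of 0.00462 in tert-/- against tert+/-. For si:ch73-367f21.4 and si:ch73-367f21.6 the fish of all genotypes overlapped.

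**Figure D4:**
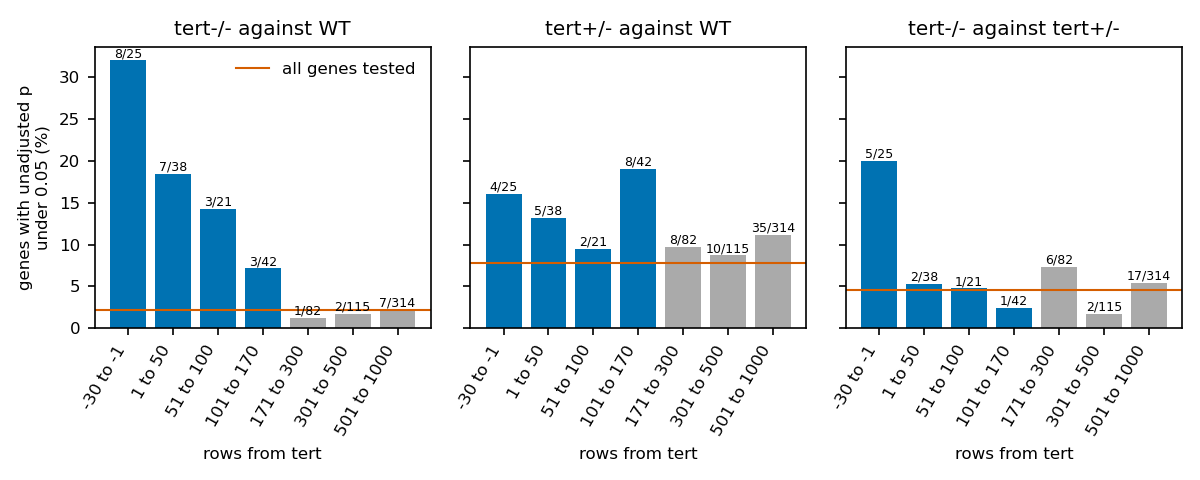
Share of genes with an unadjusted edgeR p under 0.05 (y axis, %) by rows from tert (x axis) in the 3 comparisons, with members in blue, rows outside the window in grey, counts above the bars and the share of all genes tested as an orange line. In tert-/- against WT brains the share is 32.0% before tert and goes from 18.4% to 7.14% over the 3 bins after it. In tert+/- against WT brains the last of these holds 19.0%. The window was drawn with p values of these fish known, so blue against grey bars are a description only.

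In tert+/- against WT brains, 19 members (15.1%) had an unadjusted edgeR p under 0.05, 9 higher and 10 lower, against 7.74% of all genes tested. edgeR called 0 of them after adjustment (0.0% of all genes, lowest adjusted p of a member 0.6019). The median ratio of the absolute change to its SE was 0.797 in members and 0.829 in genes at the same minimum. Summed intestine markers, 4 of 4 found, were at 20.7 to 42.2 CPM in tert+/- fish and 11.8 to 17.8 in WT fish, without overlap, and their part in these differences was not tested. The counts by bin were 4 of 25, 5 of 38 (13.2%), 2 of 21 (9.52%) and 8 of 42 (19.0%) in the window, and the shares were 9.76, 8.70 and 11.1% outside it, with no order by distance. The lowest p values belonged to ENSDARG00000099438, ENSDARG00000099747 and si:ch73-281i18.7, the 3 members without overlap. In the last bin, 7 of those 8 members had an unadjusted p of at least 0.05 in tert-/- against WT brains, and the exception was si:ch73-281i18.7. EIF1, a translation initiation factor, differed by 0.21 in tert+/- and 0.03 in tert-/- against WT, and JUP, the junction protein plakoglobin, by -0.48 and -0.25. Without WT 1, WT 5 and tert+/- 3, the libraries high in photoreceptor genes, the count was 8 members in tert+/- against WT (6 higher and 2 lower). The share of all genes in that refit is not given, so the 8 cannot be set against it.

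Between tert-/- and tert+/- brains, a comparison without WT fish, 9 members (7.14%) had an unadjusted edgeR p under 0.05, 3 higher and 6 lower in tert-/- brains, against 4.62% of all genes. edgeR called 0 after adjustment (0.0% of all genes). Of the 9, 5 were among the 25 members before tert, namely si:zfos-632h11.5, TATDN1, sema6ca and akap9, all lower, and ENSDARG00000086107, higher. In the later bins the shares were 5.26, 4.76 and 2.38%, and in the 3 bins outside the window they were 7.32, 1.74 and 5.41%, with no order by distance there. The differences between the mutant genotypes were -0.58 ± 0.17 for DENND3, 0.44 ± 0.11 for BTD and -0.52 ± 0.22 for SCX. Without tert-/- 3 the count was 15 members. The share of all genes in that refit is not given, so nothing is read from the change.

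Allele dose was examined as a slope over mutant allele counts of 0, 1 and 2. A total of 19 members (15.1%) had an unadjusted edgeR p under 0.05 for the slope, 7 higher and 12 lower with each allele, against 2.16% of all genes. edgeR called 0 after adjustment (0.0% of all genes), and DESeq2, which called 0.0593% of its genes, called sema6ca, ENSDARG00000099438 and BTD. Their log2 changes per allele were -0.52 ± 0.09, 0.76 ± 0.13 and 0.30 ± 0.06. In 18 of the 19 members, the tert+/- change was between 0 and 100% of the tert-/- change, with a median of 57.3%. It was 25 to 75% in 13 members, under 25% in 1 and above 75% in 5. These shares describe members picked by their slope, which favours such an order, and both changes are measured against the same WT fish.

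For the 19 members, the percentages reached with 1 allele are ratios of 2 estimates, given without an error. Only akap9 had an unadjusted edgeR p under 0.05 (0.0335) off the midpoint of both homozygotes. The other members could not be told from that midpoint by this test, so their order is a description only. At the low end, akap9 had 4.2% of its tert-/- change in tert+/- brains, a mean over fish on both sides of the WT range. Its tert+/- fish were at 208 to 254 CPM against 227 to 242 in WT, with 0 inside the WT range. DENND3, zhx2b, BTD, DGAT1, SCX and sema6ca had 27.4, 28.3, 29.1, 32.9, 35.0 and 39.8%. In the middle were ENSDARG00000077668 (60.5%), BOP1 (60.6%) and ENSDARG00000099438 (67.2%). At the high end, VPS72, fhod3a, ENSDARG00000099747, tmem65 and si:ch73-281i18.7 had 79.2, 91.3, 91.6, 99.3 and 102.2%. Their unadjusted edgeR p values off the midpoint were 0.312, 0.262, 0.0715, 0.178 and 0.0545. No member, and none of the genes tested, was fully ordered in every fish from WT through tert+/- to tert-/-.

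The 19 members were picked by slope in these same fish, which places tert-/- fish beyond WT, so the counts per fish only show how single fish varied. Mutant fish were compared with all WT fish, but each WT fish only with the other WT fish. By construction, the most extreme WT fish of each member lies beyond the others, so the WT total is fixed. Mutant and WT counts therefore cannot be set against each other. Fish tert-/- 1, 2 and 3 lay beyond the WT range in the direction of the slope for 16, 19 and 17 members. The tert+/- fish 1 to 5 did so for 10, 13, 15, 14 and 13 members. WT fish 1 to 5 lay beyond the other WT fish for 5, 2, 5, 6 and 1. Of the 6 slope members before tert, tert+/- fish lay beyond WT for 4 or 5, and tert-/- fish for 5 or 6. There WT 4 was the most extreme WT fish for 4, and the other WT fish were so for 0 or 1. Among the 3 slope members in rows 51 to 100, tert+/- 1 did so for 0, and the other tert+/- fish for 2 or 3. The WT fish did so for 0 to 2 of these.

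Against the midpoint of both homozygotes, 11 members (8.73%) had an unadjusted edgeR p under 0.05, 8 higher and 3 lower. This was near the 7.8% of all genes, so the members did not stand out here. The median ratio of the absolute difference to its SE was 0.678 in members and 0.816 in genes at the same minimum. After adjustment edgeR called 2 genes of the table (0.00997%), neither a member. The lowest p values belonged to FHL3, a LIM domain gene, PTK2, the focal adhesion kinase, and si:dkey-89b17.7. FHL3 was at 11.9 ± 1.9 CPM in WT, 15.2 ± 2.89 in tert+/- and 11.9 ± 1.1 in tert-/- brains, and PTK2 at 17.4 ± 2.27, 14.2 ± 2.06 and 17.3 ± 1.21 CPM. In both genes the fish of all genotypes overlapped. Without tert-/- 1, 4 members had a p under 0.05, and without tert+/- 2, 6 did. The shares of all genes in those refits are not given.

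By known role, 11 of the 21 members with an unadjusted p under 0.05 in tert-/- against WT could be placed in a group. Beside the 2.14% of all genes tested, the counts per group are a description only. Of 9 members of synapse, excitability and axon guidance, 1 (sema6ca) had such a p, and the median log2 fold change was -0.02. The counts were 3 of 18 for transcription and chromatin (zhx2b, VPS72 and SCX, all lower), 2 of 10 for metabolic enzymes and lipid transfer (DGAT1 lower, BTD higher) and 2 of 12 for adhesion, cytoskeleton and signalling (akap9 lower, fhod3a higher). They were 1 of 9 for RNA handling and ribosome (BOP1), 1 of 8 for membrane traffic and lysosome (DENND3), 1 of 4 for mitochondrial proteins (tmem65) and 0 of 5 for ubiquitin ligases and their adaptors. The other 51 members were not placed in a group, and the groups were made after the values had been seen.

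Several members with wide changes also varied widely among fish of 1 genotype. SLC45A4 (ENSDARG00000104981), a solute carrier gene 12 rows after tert, had a log2 fold change of -1.31 ± 0.75 in tert-/- against WT, within 2 SE of 0. It was low in tert-/- 2 and tert-/- 3 (0.415 and 0.427 CPM) and also in tert+/- 1 (0.241 CPM), and it was 2.48 in tert-/- 1, within the WT range of 1.51 to 4.32 CPM. EOMES, a T-box transcription factor gene of telencephalic neurons, ranged from 7.96 to 119 CPM in WT fish alone, with a log2 fold change of -0.95 ± 1.18. The widest fitted change, -2.18 ± 1.04 for si:ch211-80h18.1, came with 65.2 CPM in WT 5 and 55.6 in tert+/- 5. Its tert-/- fish measured 3.50, 4.69 and 4.89 CPM, against 4.11 to 16.1 in the other WT fish and 5.20 to 10.7 in the other tert+/- fish. They overlapped WT and lay below every tert+/- fish.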

How the data were processed

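Brain RNA of 13 zebrafish was sequenced from libraries made with a TruSeq RNA version 2 kit, which does not mark strand, so reads of overlapping antisense genes cannot be told apart. Per the labels, the authors used bcl2fastq 1.8.4, STAR 2.4.1d, featureCounts 1.4.6-p4 and the build GRCz10. The deposited values are raw read counts per Ensembl gene and were used as deposited. The deposited RPKM table was not used. No annotation of that build was used, so table rows stand in for positions.

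Counts were tested with edgeR 4.0.16 in R 4.3.3 (TMM factors, filterByExpr with a minimum count of 10, quasi-likelihood F tests, 1 fit of all 13 libraries, no covariates), with Benjamini-Hochberg adjustment over 20064 genes. CPM uses TMM factors, while the CPM minimum used library totals. Standard errors (SE) were computed from each F value and its log2 fold change. Alternatives were DESeq2 1.42.0, limma 3.58.1 voom, RLE factors, no filter, a CPM minimum of 5, only the compared genotypes, and each library left out. The fit was first tested on simulated data.

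Members and lists were chosen with earlier results of these data known. Genes named were those with a slope p under 0.05, the 5 nearest on each side, the 5 widest changes, the 3 lowest midpoint p values, those at the borders, the 3 highest levels and those called. 1 of these genes is not reported here. Others were chosen after their values were seen. Groups follow the strain label. Replicate numbers follow record order. The labels do not say whether the fish shared parents, tanks or batches, so p values measure the spread between these fish only.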

Additional observations from a re-analysis of the deposited data

Results flagged for a closer look

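WT and tert+/- fish were searched for a single fish far from the others in 37 named genes, which gave 74 groups (the 3 tert-/- fish are too few for this search), and chance alone marks about 1 group in 20. Only si:ch211-80h18.1 was marked, in 2 of its groups. It stood at 65.2 CPM in WT 5, where the other WT fish were at 4.11 to 16.1 (gap over range 0.803), and at 55.6 CPM in tert+/- 5, where the other tert+/- fish were at 5.20 to 10.7 (0.892). Photoreceptor genes were also high in WT 5 but not in tert+/- 5, and their part in these values was not tested.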

How the results depend on the processing

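No paired analysis was possible because the labels give no replicate numbers shared between genotypes. Counts of members with an unadjusted p under 0.05 in tert-/- against WT, tert+/- against WT, tert-/- against tert+/-, along the allele count and off the midpoint stayed within 1.5 times under RLE factors, DESeq2, voom, no filter and, for the 3 pairwise counts, fits of the compared genotypes only. With a CPM minimum of 5, which 96 of the 126 members met, they were 13 in tert-/- against WT and 12 along the allele count. Without WT 1, WT 5 and tert+/- 3, a setting chosen after seeing the data, they were 13 in tert-/- against WT, 8 in tert+/- against WT and 7 off the midpoint. With single libraries left out, the 5 counts ran from 13 (without tert-/- 2) to 23, from 11 (without WT 3; 12 without tert+/- 2 or tert+/- 4) to 25, from 7 to 15 (without tert-/- 3), from 15 to 25 and from 4 (without tert-/- 1) to 14. The shares of all genes with a low p in these settings are not given, so nothing is read from the changes in count. With single libraries left out, members without overlap between tert-/- and WT fish numbered 16 to 32. The 32 came without tert-/- 1, where 13.0% of all genes did not overlap. Members called by DESeq2 in refits with single libraries left out numbered 3 to 6, out of 9 to 89 genes called in all. The 6 came without tert-/- 1, where the 89 genes were called.

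Slopes changed sign in 7 named genes when single libraries were left out, with log2 changes per allele from -0.147 to 0.0451 (nup42), -0.177 to 0.0639 (NRM), -0.102 to 0.0342 (zgc:162972), -0.0398 to 0.477 (zgc:173581), -0.0247 to 0.283 (recql4), -4.11e-05 to 0.0679 (eno2) and -0.0202 to 0.0369 (atp1a3a). With all libraries, the slopes of zgc:173581 and recql4 were 0.129 ± 0.371 and 0.148 ± 0.176 (SE), each within 1 SE of 0. Without the 3 libraries named above, nup42, zgc:162972 and zgc:173581 reversed to 0.0179, 0.0695 and -0.0979. The causes were not tested. Depth limits the low members: LRRC3B, SLC45A4 and si:ch73-281i18.3 rest on as few as 14, 6 and 7 counts in a library.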

Other observations

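Rows of the window under the CPM minimum, 72 in all, are in no count of members, although some were fitted with the whole table. Of these, 15 had 0 counts in every library. The row directly after tert, SLC6A19 (ENSDARG00000018621), was at 0.0253, 0.339 and 0.369 CPM in WT, tert+/- and tert-/- brains. Every mutant fish lay above every WT fish there, on at most 20 counts in a library. In the next row, also named SLC6A19 (ENSDARG00000091560), means were 0.222, 0.408 and 0.406 CPM and the fish overlapped. The row gnb3b, a subunit gene of the cone photoreceptor G protein 134 rows after tert, had 60.5 CPM in WT 5 and 19.5 in tert+/- 3, the libraries highest in photoreceptor genes, and a mean of 0.182 CPM in tert-/- brains. It missed the minimum because only 2 libraries reached 1 CPM. So did krt92, 142 rows after tert, at 0.038, 0.713 and 0.0416 CPM in WT, tert+/- and tert-/- brains. DESeq2 called krt92 in tert+/- against WT (adjusted p = 0.0259), where it called 0.12% of its genes, and off the midpoint (adjusted p = 0.00171). The row held at most 28 counts in a library, and tert+/- 3 lay inside the WT range.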
